A study of Mus musculus with 6 samples.

Results

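The nuclear-encoded subunits of the mitochondrial respiratory chain and ATP synthase were examined in tissue on either side of the mouse dorsal aorta. Members were taken by gene symbol (the Ndufa, Ndufb, Ndufc, Ndufs, Ndufv and Ndufab subunits of complex I, Sdha to Sdhd of complex II, the Uqcr genes of complex III, Cox4 to Cox8 of complex IV and the Atp5 genes of complex V). Assembly factors and 4 genes marked as pseudogenes were left out. This gave 77 of the 24675 measured genes, with 36 in complex I, 4 in complex II, 7 in complex III, 17 in complex IV and 13 in complex V. The family was chosen by symbol but taken up because of measured values, the ventral against dorsal differences of members such as Ndufa12 and Cox6a1 on these arrays, so the differences of its members are given as a description and are no independent test.

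The groups were 3 arrays of ventral tissue, cut from under the aorta, and 3 arrays of dorsal tissue, cut from between the notochord and the aortic roof, all from untreated C57Bl/6 embryos at embryonic day 10.5. Regions were cut by position with a laser from stained cryosections and hold several cell types. Per the labels, dorsal and ventral tissue was taken from the same embryos, and biological replicates are numbered 1 to 3 in each region. The labels do not say how many embryos entered a sample or that equal numbers mean the same embryo. RNA was amplified from 200 to 1000 pg per sample. In such tissue samples, fewer cells of a type and less RNA per cell cannot be told apart.

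Complexes I to IV of the inner mitochondrial membrane pass electrons from NADH and succinate to oxygen. Complexes I, III and IV pump protons as they do so, and complex V, the ATP synthase, lets the protons flow back and makes ATP. Complex II is the one complex whose subunits are all encoded in the nucleus. In the others, nuclear subunits assemble with a few made from mitochondrial DNA. Several complex IV subunits exist as paired isoforms, one broadly expressed and another found in heart and skeletal muscle, lung or testis. The embryo shifts from glycolysis towards oxidative metabolism around midgestation, as known from other work.

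The deposited signals are on the log2 scale. Array medians over all genes lay between 3.2 and 3.24 in ventral and between 3.24 and 3.27 in dorsal arrays. The medians over the 77 members were 4.55, 4.51 and 4.37 in the ventral and 4.52, 4.70 and 4.44 in the dorsal arrays, so the regions overlapped. A signal above 5 was found for 26 to 28 members in ventral and 27 to 30 in dorsal arrays. Among all genes it was found for 1296 to 1341 in ventral and 1235 to 1244 in dorsal arrays. Every ventral array thus held more genes above 5 than any dorsal array, which the members did not share. Of the 77 members, 18 had a mean under 3.5 over the 6 arrays, close to those medians, where signal and background are hard to separate. Signals of different probe sets depend on their probes, so members are not ranked by level.

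Promoters from the RefSeq table of build GRCm38.p6 could be matched to 63 of the 77 members, which had 68 promoter windows of 300 bases, from 250 before to 50 after the gene start. The windows of 4 members are shown because the results below turn on them. Ndufa12 and Cox6a1 had the largest ventral-lower differences, Cox5b was lower in every ventral array with little spread, and Cox8a was higher in every ventral array. Ndufa12 lies at chr10:94198785-94199084 on the plus strand, Cox6a1 at chr5:115348909-115349208 on the minus strand, Cox5b at chr1:36691237-36691536 on the plus strand and Cox8a at chr19:7217567-7217866 on the minus strand. Each is written 5′ to 3′ along the gene, with motif matches in capitals.
Ndufa12: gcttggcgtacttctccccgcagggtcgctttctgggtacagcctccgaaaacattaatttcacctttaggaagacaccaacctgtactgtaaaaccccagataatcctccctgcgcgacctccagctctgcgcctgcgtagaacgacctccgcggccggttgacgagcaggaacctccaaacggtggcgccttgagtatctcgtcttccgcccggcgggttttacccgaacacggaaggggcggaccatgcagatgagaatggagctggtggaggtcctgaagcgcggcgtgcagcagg
Cox6a1: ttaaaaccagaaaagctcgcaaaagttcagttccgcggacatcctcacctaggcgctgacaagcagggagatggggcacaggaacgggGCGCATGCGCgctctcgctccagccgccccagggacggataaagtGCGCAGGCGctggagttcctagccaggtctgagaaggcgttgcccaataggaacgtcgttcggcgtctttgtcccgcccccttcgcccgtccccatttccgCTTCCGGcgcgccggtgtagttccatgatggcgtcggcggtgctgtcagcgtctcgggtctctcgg
Cox5b: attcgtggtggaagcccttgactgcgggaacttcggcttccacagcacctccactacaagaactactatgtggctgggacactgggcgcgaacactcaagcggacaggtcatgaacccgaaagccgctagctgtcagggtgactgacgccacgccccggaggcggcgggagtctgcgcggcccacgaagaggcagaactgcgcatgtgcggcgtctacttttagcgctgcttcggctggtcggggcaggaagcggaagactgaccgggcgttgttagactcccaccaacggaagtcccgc
Cox8a: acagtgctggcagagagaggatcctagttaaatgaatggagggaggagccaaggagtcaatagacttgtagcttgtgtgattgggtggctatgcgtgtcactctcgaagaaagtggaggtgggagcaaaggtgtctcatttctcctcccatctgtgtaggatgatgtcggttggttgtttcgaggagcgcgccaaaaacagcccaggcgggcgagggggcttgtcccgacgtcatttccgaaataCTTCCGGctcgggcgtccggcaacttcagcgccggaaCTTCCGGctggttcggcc

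The capitals mark matches on either strand to 4 motifs of factors known for respiratory chain promoters, NRF1 (GCGCANGCG), ETS factors such as GABPA (CCGGAAG), YY1 (ANATGGCGG) and the oestrogen-related receptors (TCAAGGTCA). Cox6a1 held an NRF1 match on each strand at bases 89 to 97 and 90 to 98, which overlap, another at bases 134 to 142 and an ETS match at bases 235 to 241, counted from the first base shown. Matches of different motifs did not overlap in these windows. Cox8a held ETS matches at bases 246 to 252 and 283 to 289. Searched as exact letters, these motifs were not in the windows of Ndufa12 and Cox5b. Sites that differ from the letters by a base were not searched for, so the lack of a match does not show that such sites are absent. Over all 68 windows of members, 25% held the NRF1 motif, against 6.25% of the 32851 windows of the whole table and 8.58% of its 21263 windows of protein-coding genes. The ETS motif was in 23.5% of member windows, against 8.86% of all and 11.6% of protein-coding windows, and the YY1 motif in 10.3%, against 1.86% and 2.48%. The receptor motif was in 2.94%, against 0.423% and 0.334%. A match is a description of letters, not of binding. The 16 members with an NRF1 match had a median log2 difference, ventral minus dorsal, of -0.19, and the 47 with a window but no match had -0.09. For the ETS motif the medians were 0.03 over 16 members with and -0.12 over 47 members without a match. For YY1 they were -0.30 over 7 members with and -0.11 over 56 without a match, and for the receptor motif 0.13 over 2 members with and -0.12 over 61 without.

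As a family the subunits did not separate the regions, and single members went either way. Of the 77 members, 42 had lower and 35 higher mean signals in ventral tissue, and the median log2 difference was -0.10, beside -0.06 over all 24675 genes, of which 58% were lower in ventral tissue. In limma none of the members passed an adjusted p of 0.05, where the share of all genes called was 0% with the replicate number as a block and 0.00405% without it. Adjusted p of the members lay between 0.215 and 0.992 with the block and between 0.262 and 0.991 without it. At an unadjusted p under 0.05, 7 members were lower in ventral tissue (9.09%, background 5.9%) and 1 was higher (1.3%, background 4.32%). Without the block the counts were 8 (10.4%, background 6.84%) and 1 (1.3%, background 4.36%). All ventral arrays lay below all dorsal arrays in 8 members (10.4%, background 12%) and above them in 2 members (2.6%, background 6.74%). A log2 difference under -1 was found in 2 members (2.6%, background 0.851%) and one over 1 in 2 members (2.6%, background 1.32%).

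The members are brighter than most genes, and the background differs with brightness. Among the 4591 genes with a mean signal above 4, 46.1% were lower in ventral tissue and the median log2 difference was 0.03. Of the 47 members above 4, 59.6% were lower and the median was -0.11. For the 30 dimmer members 46.7% were lower, with a median of 0.02, beside 60.7% and -0.08 over the 20084 dimmer genes. A log2 difference of less than 0.5 in size was found in 58 of the 77 members and in 21351 of the 24675 genes. With a mean above 4 it was found in 36 of 47 members and in 3501 of 4591 genes, a like share. At this brightness a log2 difference under -1 was found in 2 of 47 members and 91 of 4591 genes. One over 1 was found in 2 of 47 members and 220 of 4591 genes. All ventral arrays lay below all dorsal arrays in 10.6% of these members and 8.19% of these genes, and above them in 4.26% and 11.2%.

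**Figure D1:**
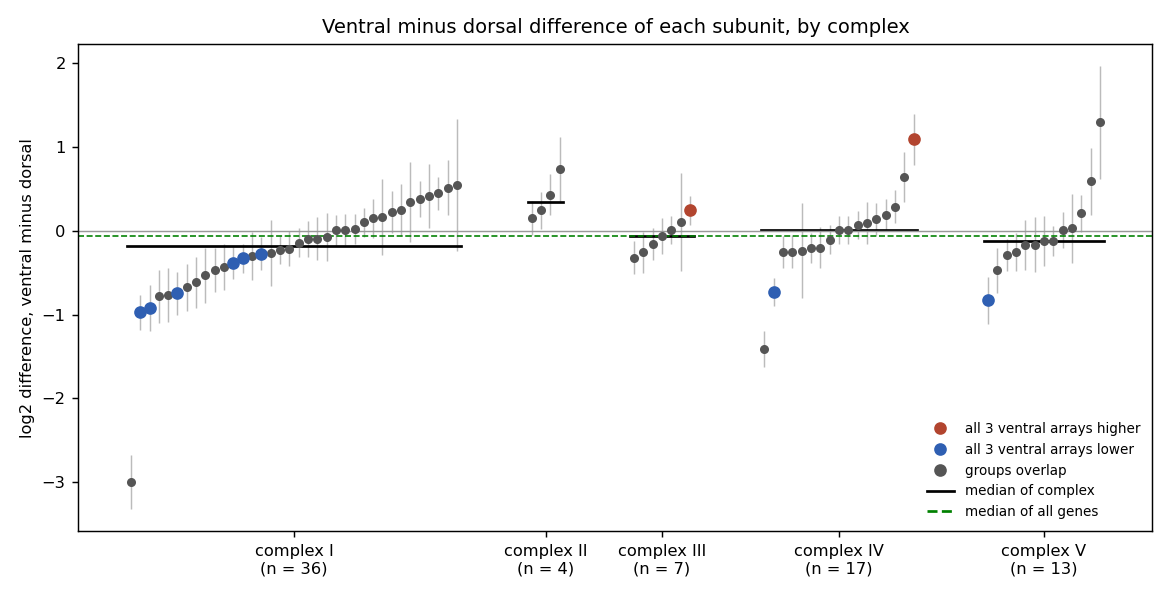
Log2 difference in signal, ventral minus dorsal, of each of the 77 subunits, ordered within its complex. Points are fitted differences from 3 arrays per region, bars are ± 1 SE from limma with the replicate block, black lines are medians of a complex and the dashed line is the median of all genes (-0.06). The lowest point is Ndufa12 (-3.0), and all 4 complex II subunits lie above 0.

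Complex I, the NADH dehydrogenase, held the member with the largest difference. Of its 36 subunits 22 were lower in ventral tissue, with a median log2 difference of -0.18. All ventral arrays lay below all dorsal arrays in 6 of the 36 (16.7%, background 12%). Ndufa12, an accessory subunit that joins the complex late in assembly, had signals of 8.39, 5.63 and 9.71 in ventral arrays 1, 2 and 3, against 11.99, 8.98 and 11.76 in the dorsal arrays. The groups overlapped, because dorsal array 2 lay below ventral array 3. Within each replicate number the ventral array was lower, by log2 differences of -3.60, -3.34 and -2.05. The mean difference was -3.0, with an SE of 0.33 and an adjusted p of 0.215 in limma with the block, and an SE of 1.14 and an adjusted p of 0.405 without it. The smaller SE applies only if equal numbers are paired.

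Ndufa7, an accessory subunit, had signals of 2.39, 2.19 and 2.06 in ventral and 3.68, 3.25 and 2.62 in dorsal arrays. The groups did not overlap, but all ventral signals and dorsal arrays 2 and 3 lay below the array medians, so the mean log2 difference of -0.97 ± 0.21 (SE, with the block) rests on dim signals in 5 of 6 arrays. Ndufv3, an accessory subunit of the NADH-binding arm, had 4.84, 4.21 and 4.43 in ventral and 5.18, 5.82 and 5.24 in dorsal arrays. Here too every ventral array was lower, with a mean log2 difference of -0.92 ± 0.27. The other complex I members without overlap were Ndufb11 (log2 difference -0.75), Ndufb1 (-0.38), Ndufa5 (-0.33) and Ndufa4l2 (-0.27), all lower in ventral tissue. Ndufa4l2 is counted with complex I by its symbol only, as a paralogue of Ndufa4, which is known as a subunit of complex IV. All 6 signals of Ndufb11, from 1.53 to 3.13, lay below the array medians. These 4 and Ndufv3 were picked for this after their values were seen.

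Core and accessory subunits of complex I had median log2 differences of opposite sign, in a division made after the data had been seen. The flavin and the iron-sulphur clusters are carried by nuclear-encoded core subunits, though not by each of them. Of the 6 measured, 5 were higher in ventral tissue, with a median log2 difference of 0.13 and a range from -0.09 for Ndufs7 to 0.42 for Ndufs3. Among these 5, Ndufv1 (0.01) and Ndufs1 (0.03) lay close to no difference, and 3 of the 6 core subunits had a mean signal under 3.5. Of the 28 accessory subunits, leaving aside Ndufa4 and its paralogue Ndufa4l2, 20 were lower in ventral tissue, and the median was -0.28. The median signals of the core subunits were 4.12, 4.06 and 4.24 in ventral and 4.29, 4.39 and 3.73 in dorsal arrays. Those of the accessory subunits were 4.36, 4.45 and 4.37 in ventral and 4.32, 4.66 and 4.28 in dorsal arrays. Both sets of array medians overlapped. The core median was lower in ventral tissue for numbers 1 and 2, and the accessory median was higher there for numbers 1 and 3. In these numbers the array medians ran against the sign of the median difference. The difference between the classes was not tested. Ndufa4, which is counted with complex I by its symbol but is known as a subunit of complex IV, had a log2 difference of 0.52 ± 0.33.

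Some complex I subunits varied more between the arrays of a region than between regions. Ndufa1, a small membrane subunit, had 7.25, 6.42 and 4.20 in ventral and 8.07, 6.99 and 3.71 in dorsal arrays. Both arrays numbered 3 were low, and the mean log2 difference was only -0.30. Ndufs6, a zinc-binding subunit, had 4.22, 7.04 and 6.03 in ventral and 5.66, 6.90 and 7.05 in dorsal arrays, with both arrays numbered 1 lowest. Ndufb2, named after its values were seen, had 7.24, 6.06 and 7.58 in ventral and 8.60, 6.06 and 8.24 in dorsal arrays, with both arrays numbered 2 lowest. Ndufb10, a subunit of the membrane arm, had 2.92, 5.90 and 3.08 in ventral and 2.81, 2.91 and 4.55 in dorsal arrays. Its mean log2 difference of 0.54 turned to -0.42 without ventral array 2. A range over 2 among the arrays of a region occurred in 10 of the 77 members (13%), against 2.87% of all genes. With a mean above 4 it occurred in 8 of 47 members (17%), against 9.1% of all such genes.

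**Figure D2:**
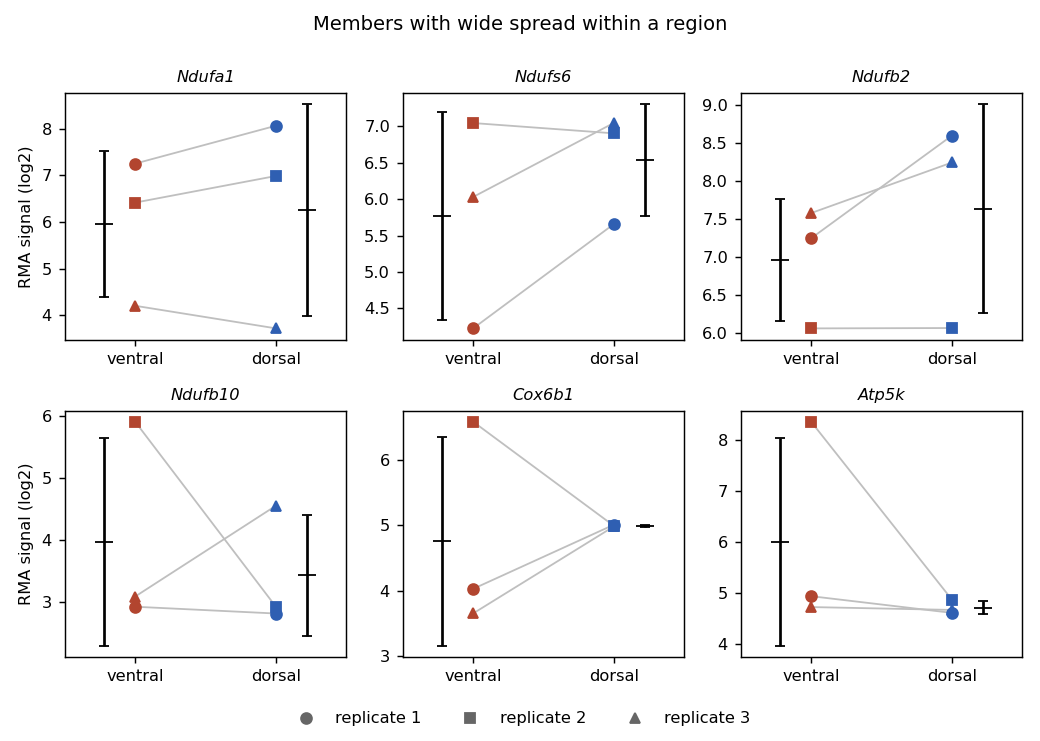
RMA signal on the log2 scale of 6 subunits in ventral (left, red) and dorsal (right, blue) arrays, with its own vertical axis for each gene. Symbols mark replicate numbers, grey lines join equal numbers, and black bars are the mean ± SD (n = 3). Ndufa1 is low in both arrays numbered 3, and Atp5k is at 8.37 in ventral array 2 and between 4.61 and 4.94 in the other arrays.

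Complex II, the succinate dehydrogenase that also works in the tricarboxylic acid cycle, had 4 of 4 subunits higher in ventral tissue, with a median log2 difference of 0.34. In every subunit the arrays of the regions overlapped. Sdhc, a membrane anchor, had 4.22, 3.10 and 3.11 in ventral and 2.48, 2.37 and 3.37 in dorsal arrays, with a log2 difference of 0.74 ± 0.38 (SE). Its signals in ventral arrays 2 and 3 and in dorsal arrays 1 and 2 lay below the array medians, so the difference rests largely on dim signals. Leaving out arrays gave 0.24 (without both arrays numbered 1) to 1.24 (without both numbered 3). Sdhd, the other anchor, had 5.06, 4.91 and 4.62 in ventral and 4.31, 4.17 and 4.81 in dorsal arrays, with 0.43 ± 0.25 and a range of 0.28 (without both arrays numbered 1) to 0.74 (without both numbered 3) when arrays were left out. In both anchors the dorsal arrays numbered 1 and 2 were low and dorsal array 3 lay within the ventral range. The iron-sulphur subunit Sdhb differed by 0.24 ± 0.22 and the flavoprotein Sdha by 0.16 ± 0.20. Adjusted p of the 4 subunits in limma lay between 0.545 and 0.787.

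Complex III, which passes electrons from ubiquinol to cytochrome c, differed little. Of its 7 subunits 4 were lower in ventral tissue, the median log2 difference was -0.06, and none exceeded 0.32 in size. Uqcrc1, a core protein that faces the matrix, had 3.40, 3.2 and 3.36 in ventral and 3.33, 3.75 and 3.84 in dorsal arrays, where dorsal array 1 lay within the ventral range. Uqcrfs1, the Rieske iron-sulphur protein, had 4.77, 4.83 and 4.85 in ventral and 4.58, 4.70 and 4.44 in dorsal arrays. Every ventral array was higher for Uqcrfs1, by a small mean log2 difference of 0.25 ± 0.17 (SE, adjusted p = 0.630 in limma).

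Complex IV, cytochrome c oxidase, held members that differed in opposite directions. All ventral arrays lay below all dorsal arrays in 1 of its 17 subunits (5.88%, background 12%) and above them in 1 (5.88%, background 6.74%). Of its 17 subunits 8 were lower and 9 higher in ventral tissue, and the median log2 difference was 0.01. Cox6a1, the broadly expressed isoform of subunit 6a, had 6.87, 5.40 and 7.41 in ventral and 8.50, 7.04 and 8.37 in dorsal arrays. Dorsal array 2 lay below ventral array 3, so the groups overlapped. Each replicate number was lower in ventral tissue, and the mean log2 difference was -1.41, with an SE of 0.21 with the block and 0.57 without it. The 6 arrays of Cox6a1 stood in the same order as those of Ndufa12, from ventral array 2 as the lowest to dorsal array 1 as the highest. This was noticed after the values were seen, and 53 of the other 24674 genes (0.215%) had that order.

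Cox5b, a zinc-binding subunit, had 5.11, 5.08 and 5.23 in ventral and 5.74, 5.90 and 5.98 in dorsal arrays. The groups were clearly apart, with means of 5.14 ± 0.08 in ventral and 5.87 ± 0.12 in dorsal tissue (SD, n = 3 each). The log2 difference of -0.73 had an SE of 0.17 with the block and 0.15 without it, and Cox5b had the smallest adjusted p of all members without the block (0.262 in limma). Cox5b-ps, a gene annotated as a pseudogene of it and therefore no member, had 3.33, 3.31 and 3.40 in ventral and 6.35, 3.92 and 7.80 in dorsal arrays. It too was lower in every ventral array, by a mean log2 difference of -2.68 ± 0.67. It was looked up after the values of Cox5b were seen. Probes of a gene and of such a copy can share target sequence, so the signal of Cox5b is uncertain to that extent. Of the other genes left out as pseudogenes, Atp5l-ps1 had a log2 difference of 0.74, Atp5c1-ps of 0.32 and Ndufs5-ps of 0.21, each with overlapping groups.

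Cox8a, the broadly expressed isoform of subunit 8, had 6.27, 5.55 and 6.34 in ventral and 4.56, 5.28 and 5.04 in dorsal arrays. Every ventral array was higher, though ventral array 2 exceeded dorsal array 2 by little. The mean log2 difference was 1.09 ± 0.30 (SE), with an adjusted p of 0.437 in limma with the block and 0.304 without it. Cox6b1, which joins the monomers of the oxidase dimer, had 4.03, 6.58 and 3.65 in ventral and 5.01, 4.99 and 4.98 in dorsal arrays. Its dorsal arrays nearly coincided, while ventral array 2 stood high and the other ventral arrays low. The mean log2 difference of -0.24 became -1.15 without ventral array 2.

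**Figure D3:**
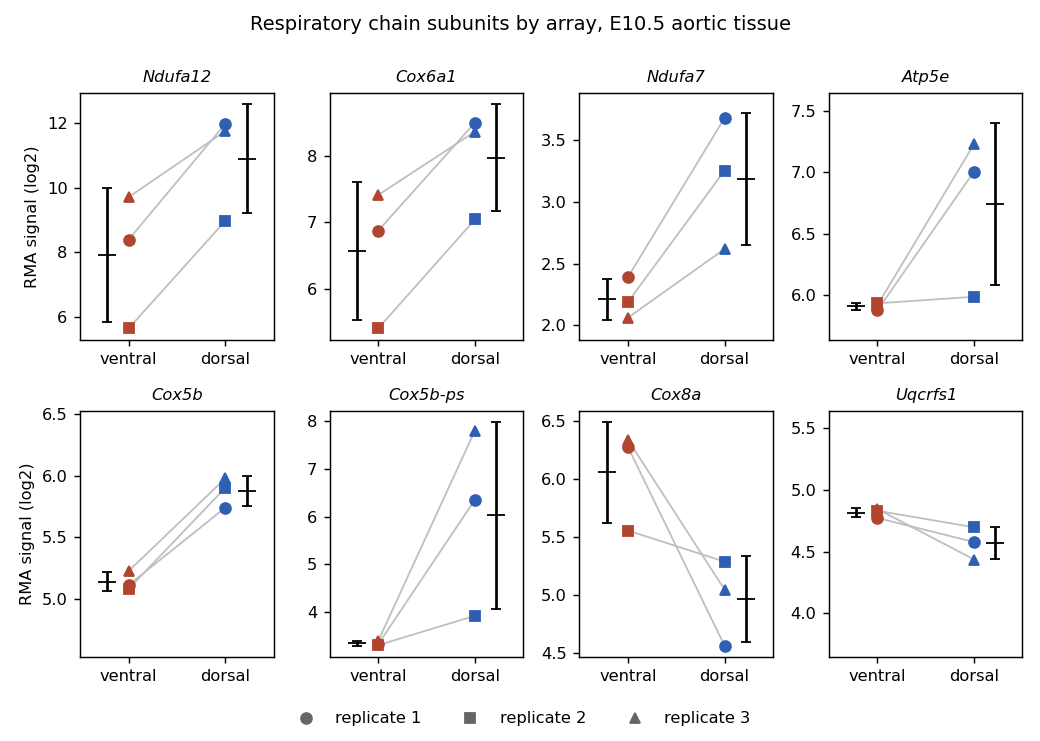
RMA signal on the log2 scale of 7 subunits and the pseudogene Cox5b-ps in ventral (left, red) and dorsal (right, blue) arrays, with its own vertical axis for each gene. Symbols mark replicate numbers, grey lines join equal numbers, and black bars are the mean ± SD (n = 3). Ndufa12 and Cox6a1 are lower in ventral tissue within each number but overlap between groups, and Cox8a is higher in all 3 ventral arrays.

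The isoform sets of complex IV were compared across the regions gene by gene. In muscle, Cox6a2, Cox7a1 and Cox8b take the place of the broadly expressed isoforms. Cox6a2 had 3.70, 4.20 and 4.05 in ventral and 4.20, 3.66 and 3.81 in dorsal arrays, with a log2 difference of 0.09, against -1.41 for Cox6a1. Cox8b had 3.33, 3.11 and 3.11 in ventral and 2.95, 2.56 and 3.16 in dorsal arrays, with 0.29, against 1.09 for Cox8a. Cox7a1 had 3.39, 3.39 and 3.22 in ventral and 3.70, 3.35 and 3.56 in dorsal arrays, with -0.20. For these muscle isoforms the regions overlapped and the 95% intervals of the differences included 0.

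The broadly expressed Cox7a2 had 4.65, 4.90 and 4.93 in ventral and 4.67, 4.77 and 4.83 in dorsal arrays, with a log2 difference of 0.07. Cox7a2l, a related protein, had 3.72, 4.51 and 4.24 in ventral and 3.19, 3.08 and 4.27 in dorsal arrays, with 0.65 ± 0.30 (SE). Only dorsal array 3 of Cox7a2l reached the ventral range, and leaving out arrays gave 0.25 (without both numbered 2) to 1.03 (without dorsal array 3). Cox4i1, the common form of subunit 4, had 4.91, 4.99 and 5.46 in ventral and 5.15, 5.16 and 5.38 in dorsal arrays, with -0.11. Cox4i2, the form known from lung and from cells short of oxygen, had 4.55, 3.79 and 4.37 in ventral and 4.17, 4.11 and 5.03 in dorsal arrays, with -0.20. Neither form of subunit 4 separated the regions. The testis isoforms Cox6b2 and Cox8c differed by 0.14 and 0.02. Cox6b2 had 3.84, 3.74 and 3.57 in ventral and 3.36, 3.75 and 3.61 in dorsal arrays, and Cox8c had 3.52, 3.65 and 3.56 in ventral and 3.54, 3.53 and 3.61 in dorsal arrays.

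Complex V, the ATP synthase, had 8 of 13 subunits lower in ventral tissue and a median log2 difference of -0.12. Atp5e, the epsilon subunit of the central stalk, had 5.88, 5.94 and 5.92 in ventral and 7.01, 5.99 and 7.23 in dorsal arrays. Its ventral arrays nearly coincided and all lay below the dorsal arrays, but dorsal array 2 lay only just above them, so the log2 difference of -0.83 ± 0.28 (SE) rests on dorsal arrays 1 and 3. Atp5k, subunit e of the membrane part that joins ATP synthase dimers, had 4.94, 8.37 and 4.72 in ventral and 4.61, 4.87 and 4.67 in dorsal arrays. The mean log2 difference was 1.30 ± 0.67, and it was 0.12 without ventral array 2, the array that also stood high for Cox6b1 and Ndufb10. The catalytic beta subunit Atp5b differed by 0.59 and the alpha subunit Atp5a1 by 0.03.

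The other mitochondrial genes did not separate the regions as groups either. In the same fit none of the members of the following lists passed an adjusted p of 0.05. Among 15 assembly factors of complex I, 8 were lower in ventral tissue, and the median log2 difference was 0.00. Its member with the smallest p was Ndufaf2, an assembly factor and paralogue of Ndufa12, with 6.15, 6.87 and 5.88 in ventral and 4.82, 5.90 and 4.65 in dorsal arrays. Ndufaf2 was higher in ventral tissue within each replicate number, by a mean log2 difference of 1.17 ± 0.18 (SE, adjusted p = 0.291 with the block and 0.371 without it), and dorsal array 2 lay just inside the ventral range. Ndufa12 differed the other way in each number. Ndufaf3, an early assembly factor, had a log2 difference of 0.53. Among 32 assembly factors of complexes II to V, 21 were lower and the median was -0.08, with 0.80 for Coa7 and -0.99 for Lyrm7.

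Carriers of electrons, ADP and phosphate had 6 of 10 members lower in ventral tissue and a median of -0.14, with 0.75 for the phosphate carrier Slc25a3 and -0.45 for the ADP/ATP carrier Slc25a4. Enzymes of the tricarboxylic acid cycle and pyruvate dehydrogenase had 8 of 18 lower and a median of 0.02, with -0.53 for Pdhx and -0.52 for Dld. Regulators of mitochondrial transcription and biogenesis had 12 of 16 lower and a median of -0.05, with -0.48 for the mitochondrial DNA polymerase Polg and -0.90 for Mterf1a. Mitochondrial protein import had 11 of 22 lower and a median of -0.04, with 1.09 for the outer membrane receptor Tomm20 and 0.62 for the import channel Tomm40. Glycolysis enzymes had 11 of 18 lower and a median of -0.18, with -0.90 for lactate dehydrogenase Ldha and -0.87 for Pgam1. All medians are to be read beside the -0.06 of all genes.

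**Figure D4:**
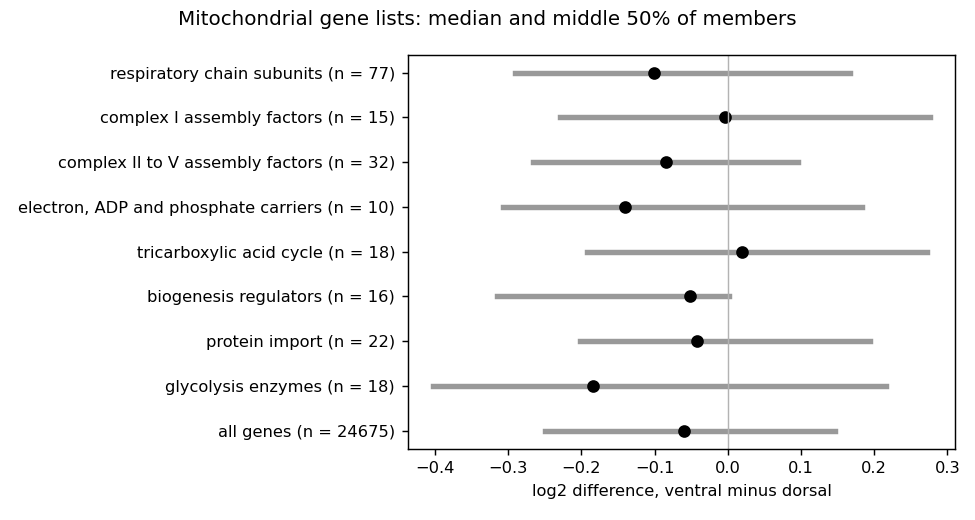
Log2 difference in signal, ventral minus dorsal, for the respiratory chain subunits, for 7 other gene lists of mitochondria and glycolysis and for all 24675 genes. Points are medians over the genes of a list and grey bars hold the middle 50% of its genes. The medians lie between -0.18 and 0.02, and every bar includes 0, that of the biogenesis regulators only just.

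Markers of cells that the cut regions can hold moved in part with the regions. Of 10 sclerotome markers, 9 were lower in ventral tissue, and their summed linear signal was 134 to 180 in ventral and 246 to 254 in dorsal arrays. Markers of splanchnic mesoderm and coelomic epithelium, tissues of the ventral side, were lower in 7 of 11 cases, with summed signals of 176 to 199 in ventral and 175 to 217 in dorsal arrays. The 10 erythroid markers had 565 to 10200 in ventral and 1840 to 7190 in dorsal arrays, with 4 of 10 lower. The 12 markers of striated muscle, the tissue of the isoforms above, had 206 to 209 in ventral and 201 to 204 in dorsal arrays, with 6 of 12 lower. For 8 notochord markers the sums were 141 to 169 in ventral and 152 to 185 in dorsal arrays, with 6 lower, for 12 endothelial markers 128 to 153 and 140 to 158, with 6 lower, for 10 markers of blood stem and progenitor cells 130 to 135 and 134 to 152, with 7 lower, and for 11 neural markers 125 to 365 and 137 to 140, with 4 lower, ventral arrays first in each pair. The part of any of these cells in the differences of the subunits was not tested.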

How the data were processed

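Total RNA of 6 laser-microdissected samples was hybridised to Affymetrix mouse gene arrays. The deposited values are log2 signals, 1 per probe set and array, made with Affymetrix Expression Console and RMA, per the submitters' processing notes, which give no versions. The log base was taken from the values (0.97 to 12.9). RMA brings arrays to a common distribution, which can hide a shift shared by most genes. Of 25429 probe sets, 24675 had 1 gene symbol in the platform annotation, 0 had several and 754 were not listed and were left out; each gene had 1 probe set, and no value was missing. For the probe sets, the sources used here name no genome build.

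Regions were compared with limma 3.58.1 in R 4.3.3 (lmFit, eBayes, two-sided, Benjamini-Hochberg over all 24675 genes, threshold 0.05), with the replicate number as a block and no filter on dim probe sets. The fit without the block stands beside it, since the labels tie regions to the same embryos but not by number. Differences are ventral minus dorsal. P-values with the block cover only the spread of the differences within replicate numbers. Those without it cover the spread between the arrays of a region. The 6 samples limit the precision of both. Compared without pairing, 3 against 3 arrays cannot give an exact two-sided p below 0.1. The procedure was tested on simulated data. Per-array values are given for the 2 members of each complex with the smallest p, members without overlap whose log2 difference exceeds 1, the 6 with the widest range in a region, and the complex IV isoforms. Of each other list the 2 genes with the smallest p are named. Promoter windows were searched in Python 3.11.15. Members and lists were chosen with earlier results of these data known. Alternatives were the block, normalization, filters on dim genes, the variance model and left-out arrays.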

Additional observations from a re-analysis of the deposited data

How the results depend on the processing

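The 24 members given by array for the naming rule kept the sign of their differences under cyclic loess, under median centring and with a trended, robust variance model. Without the replicate block, limma called 1 gene and none of the members. Across genes, deviations of equally numbered arrays from their region means correlated at 0.0389, -0.0136 and 0.0575 over all genes and at 0.443, 0.239 and 0.331 over the 77 members. Over the members they became 0.162, 0.0339 and 0.086 without the 6 members of widest range. With Cox6a1 and Ndufb2 left out as well, they were 0.112, -0.253 and 0.0253. A fall was built in, since the 6 were picked for their spread within a region, which weighs most in such correlations. Cox6a1 and Ndufb2 also spread widely within a region. Over the 28 members with a mean over 5, with Ndufa12, Ndufa1, Cox6a1 and Ndufb2 among them, they were 0.732, 0.62 and 0.646. Over all genes with such a mean they were 0.0917, 0.0478 and 0.114. These values do not settle whether equal numbers are paired. The median of complex III was -0.16 after cyclic loess, and that of complex I was -0.13 after median centring. Leaving out genes with a mean under 5 kept 28 members, 18 of them lower in ventral tissue, with medians of -0.26 for complex I, -0.16 for complex III and -0.18 for complex IV. Without 1 array, or without both arrays of a number, 0 to 5 genes were called, the medians ranged from -0.12 to -0.03 for all members, from -0.245 to -0.0902 for complex I, from 0.20 to 0.50 for complex II, from -0.210 to 0.0422 for complex III, from -0.08 to 0.05 for complex IV and from -0.27 to -0.03 for complex V, and 41 to 48 members were lower. Over all alternatives the difference of Ndufa12 lay between -3.97 and -1.86, that of Cox6a1 between -1.87 and -0.83, that of Cox5b between -0.81 and -0.68 and that of Cox8a between 0.78 and 1.5. Leaving out arrays turned the sign of Ndufa1, Ndufs6, Ndufb10, Cox6b1, Cox4i2, Cox6a2, Cox6b2 and Cox8c, with a range from -1.57 to 0.61 for Ndufa1, from -0.68 to 1.55 for Ndufb10 and from -1.15 to 0.31 for Cox6b1. The medians of accessory and core complex I subunits stayed between -0.34 and -0.21 and between 0.03 and 0.22. The cause of these shifts was not tested. Many members lie near the array medians, where a small difference does not show equal transcript levels. Counting Ndufa4 and Ndufa4l2 with complex IV, and using members with a mean above 4 only, were chosen after seeing the data and moved the medians by less than the spread between replicate numbers.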
